A study of Mus musculus with 5 samples.

Results

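The cells described here are the conventional dendritic cells of mouse mammary tumours, picked out of single-cell RNA libraries by a rule on raw counts of unique molecular identifiers (UMIs, the tags that mark single RNA molecules). A barcode, which stands for 1 captured cell, was a member if it had at least 1500 UMIs, keratin and Epcam UMIs (Krt8, Krt18, Krt19 and Epcam) under 0.3% of its total, and at least 1 UMI of Flt3. It also needed at least 20 UMIs of the MHC class II genes H2-Aa, H2-Ab1 and H2-Eb1 together, at most 3 of C1qa, C1qb and C1qc together, and none of Siglech, Cd79a or Cd3e. The rule found 139 members among 24022 barcodes. Members were thus chosen by their measured UMIs of these genes, so the levels of these genes and any contrast of members with other cells are given as descriptions, with no test. The tumours came from injecting cells of SSM2, a line that the series title places among hormone receptor-positive mouse mammary tumours, into a mammary gland of mice aged 10 to 12 weeks. Each mouse carried a subcutaneous pellet that held 60 mg and released over 60 days, with progesterone in 1 group and a placebo in the other, and tumours were taken 28 to 62 days later. The strain of the mice is not given in the sources used here. Placebo 1 and Progesterone 1 formed batch 1, and Placebo 2, Progesterone 2 and Progesterone 3 formed batch 2, as the sample titles name them.

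Conventional dendritic cells take up antigen in tissues, carry it to lymph nodes and present it to T cells on MHC class I and class II molecules. They depend on the receptor tyrosine kinase FLT3, and fall into cDC1 cells, which cross-present antigen on MHC class I and carry the receptors XCR1 and CLEC9A, and cDC2 cells, which are known for presentation to CD4 T cells. When they mature, cells of both kinds switch on the chemokine receptor CCR7 and the actin bundling protein fascin (Fscn1) and leave for the lymph node. Among members, a barcode with at least 1 UMI of Xcr1 and Clec9a together was called cDC1, and a barcode with at least 2 UMIs of Ccr7 and Fscn1 together was called mature.

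The 5 libraries held 2241 to 5857 barcodes. Placebo 1 stood apart: 3870 of its 4940 barcodes passed as T cells (low-keratin barcodes with at least 1 Cd3e UMI and no C1q UMI), against 23 to 307 in the other libraries, and it held only 5 members. The other libraries held 18 (Progesterone 1), 34 (Placebo 2), 46 (Progesterone 2) and 36 (Progesterone 3). Both libraries of batch 1 held few keratin-rich barcodes (at least 1500 UMIs, keratin and Epcam at 0.3% or more), 87 in Placebo 1 and 212 in Progesterone 1. Placebo 2, Progesterone 2 and Progesterone 3 held 4104, 3560 and 3756 of them. Members were deep, with median totals of 24042, 17006, 17361, 16306 and 15157 UMIs. These 5 values, and all lists of 5 below, run Placebo 1, Progesterone 1 (batch 1), then Placebo 2, Progesterone 2, Progesterone 3 (batch 2). Pairs of libraries shared 2 to 12 barcode sequences. No label ties a library to its own animal, and the file names of Progesterone 2 and Progesterone 3 carry a common tag with L for 1 and R for the other. Differences between groups are therefore set only against the spread between these libraries. A pair of members stood apart from the rest. They were picked after the data were seen, by at least 100 UMIs of Tanc2 or of the fibroblast markers together. The first, in Placebo 2, had 38900 UMIs, of which keratin and Epcam made up 0.288%, carried 204 UMIs of Tanc2 and was called a doublet. The other, in Progesterone 1, had 75477 UMIs, 712 of them from fibroblast markers, and was not called a doublet.

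Genes that the rule did not use went with the label in some comparisons and not in others. Zbtb46, a transcription factor that marks the conventional dendritic lineage, was found in 62 of 139 members at 157, 103, 108, 75.1 and 75.1 CPM (UMIs of the gene over all UMIs summed across the members of a library, scaled to 1000000). The same gene stood at 0 to 10.2 CPM in macrophages, defined as low-keratin barcodes with at least 20 C1q UMIs and no Flt3 UMI. Itgax, the integrin CD11c, was found in 78 members. The 6 conventional dendritic cell markers outside the rule summed to 9649, 9688, 16981, 16971 and 18564 CPM in members. In macrophages they summed to 13886, 10794, 9665, 9496 and 14412 CPM. Members thus lay below macrophages in batch 1 and above them in batch 2, and Cd74 gave most of the sum in members. The 15 genes with the largest median ratio of members over macrophages held 3 genes of the rules (Flt3, Ccr7 and Fscn1) and 12 others: Plet1, Ifitm1, Mreg, Timd4, Htr7, P2ry10, Ccser1, Zfp366, Btla, Il12b, Zeb1 and Il1r2. Not all were high in every library. Plet1, Timd4 and Il12b stood at 5.30, 2.65 and 7.95 CPM in members of Progesterone 1. In members of batch 2 they stood at 504 to 631, 258 to 296 and 167 to 474 CPM. Zfp366, known as DC-SCRIPT and a regulator of dendritic cell development, stood at 113 to 170 CPM in members and 0.418 to 1.79 CPM in macrophages of the 4 libraries other than Placebo 1. Btla, an inhibitory receptor of dendritic cells and lymphocytes, stood at 39.8 to 175 CPM in members of those 4 libraries and at 0 to 0.358 CPM in their macrophages.

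Markers of other cells, counted without genes of the rule, differed by type. Of the 6 B cell markers no UMI was found in members outside Progesterone 1, and the T cell markers Bcl11b and Cd8b1 were at 0 in all members. The 8 NK cell markers summed to 0, 15.9, 47.4, 43.5 and 23.4 CPM in members and to 0, 7.16, 1.11, 1.51 and 2.82 CPM in macrophages. Of these, Ncr1, Nkg7, Prf1 and Eomes were at 0 in all members, and Klrk1, which encodes the receptor NKG2D, gave most of the UMIs in batch 2. The 11 plasmacytoid dendritic cell markers summed to 147, 448, 819, 593 and 689 CPM, against 613 to 806 CPM in macrophages, and at least 1 of them was found in 32 of 34, 41 of 46 and 34 of 36 members of batch 2. The 9 tumour epithelium markers summed to 78.4, 66.3, 247, 441 and 337 CPM, against 0, 39.4, 243, 345 and 285 CPM in macrophages, and were found in 34 of 34, 46 of 46 and 34 of 36 members of batch 2. Among those libraries the members of Placebo 2 had the lowest level of epithelial and the highest of plasmacytoid markers. The part of these RNAs in the results below was not tested. The 10 macrophage markers summed to 29.4, 952, 232, 424 and 345 CPM in members against 4679, 18574, 18304, 26325 and 24446 CPM in macrophages. The 12 monocyte markers summed to 264, 2910, 1420, 1750 and 1795 CPM, highest in Progesterone 1. The 8 fibroblast markers summed to 1890 CPM in Progesterone 1, from 2 of its members, and to 0 to 37.6 CPM in the other libraries. The 11 T cell markers summed to 196 CPM in the 5 members of Placebo 1 and to 10.0 to 17.1 CPM in the other libraries. The Langerhans cell marker Cd207 (langerin) was found in 6 members.

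The rule had edges that many barcodes lay close to. Flt3 was at 1 UMI in 47 members, at 2 in 22 and at 3 or more in 70, and 371 barcodes failed the rule on Flt3 alone. In keratin-rich barcodes, which should lack Flt3, 0%, 1.42%, 1.22%, 1.21% and 1.20% had an Flt3 UMI at median depths of 3072, 4534, 34561, 47199 and 39975 UMIs. The shares of Placebo 1 and Progesterone 1 rest on only 87 and 212 such barcodes. In barcodes with at least 20 C1q UMIs that share was 0%, 2.76%, 1.52%, 1.07% and 2.51%. The class II sum of members had a median of 507 UMIs and reached 1592, and only 12 members lay between 20 and 39. A further 130 barcodes failed on Siglech alone, a plasmacytoid dendritic cell gene, 35 on Cd79a, 33 on C1q, 30 on class II, 14 on keratin and 4 on Cd3e.

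Members made up 0.108% of the low-keratin barcodes of Placebo 1 (5 of 4637, exact Clopper-Pearson 95% interval 0.0350 to 0.251%). In Progesterone 1 the share was 1.09% (0.649 to 1.72%). Placebo 2 had 2.56% (1.78 to 3.55%), Progesterone 2 had 3.42% (2.51 to 4.53%) and Progesterone 3 had 3.19% (2.25 to 4.39%). These intervals cover counting error only. In batch 1 the 2 intervals did not overlap, and in batch 2 all 3 did. Over both batches the log2 ratio of progesterone over placebo was 1.56 (exact permutation within batches, two-sided p = 0.167, the smallest that its 6 arrangements allow). Without Placebo 1, whose low-keratin barcodes were mostly T cells, the log2 ratio was 0.37. Per 100 macrophages the members numbered 55.6, 11.1, 7.82, 5.58 and 7.21, where the Placebo 1 value rests on 5 members and 9 macrophages. On this scale the direction turned, with a log2 ratio of -1.11 (exact permutation p = 0.333). The direction thus depended on the cells used as denominator, and neither ratio passed a test.

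**Figure D1:**
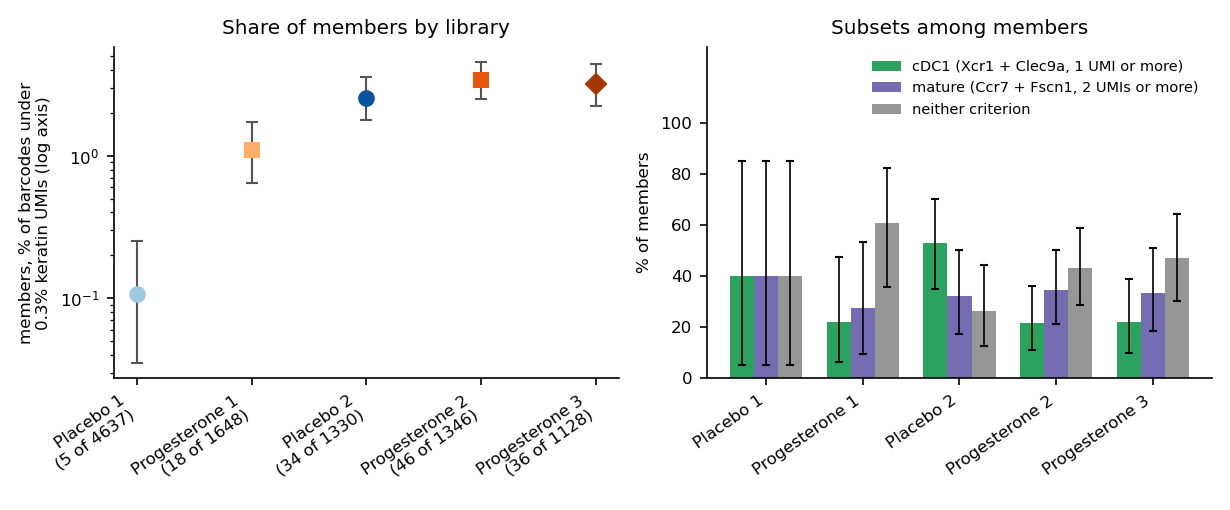
Left, members as a percentage of low-keratin barcodes on a log axis, 1 point per library, with the numbers of barcodes under each name. Right, the percentage of members called cDC1, mature or neither, where 8 members count in both subsets. Bars through the points and columns are exact 95% intervals. Placebo 1 has the lowest share of members and the widest subset intervals, and the cDC1 column of Placebo 2 stands above those of the 3 progesterone libraries.

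cDC1 members numbered 42, mature members 46, and 8 of these were both, while 59 members were neither. In batch 1, cDC1 cells were 2 of the 5 members of Placebo 1 and 4 of the 18 members of Progesterone 1 (22.2%). In batch 2 they were 18 of 34 members with placebo (52.9%), and 10 of 46 (21.7%) and 8 of 36 (22.2%) with progesterone. All 3 progesterone libraries lay between 21.7% and 22.2%, below both placebo libraries. The Placebo 1 share rests on 5 members (exact 95% interval 5.27 to 85.3%), and 1 of its cDC1 members was called a doublet. With doublet calls left out its share was 25% (0.631 to 80.6%). The exact 95% interval of Placebo 2 (35.1 to 70.2%) overlapped those of Progesterone 2 (10.9 to 36.4%) and Progesterone 3 (10.1 to 39.2%). In the libraries with at least 10 members the difference within batches was -31.0 percentage points (exact permutation p = 0.333, the smallest that 3 arrangements allow). With Placebo 1 added and no batches, every progesterone library was below every placebo library, the difference was -24.4 points and p was 0.1, the smallest that 10 arrangements allow. When each member was thinned to 1500 UMIs the shares fell to 20.4%, 6.63%, 25.2%, 10.1% and 9.32%, in the same order of groups. The cDC1 criterion was met by 0% to 0.920% of macrophages and 0% to 0.658% of keratin-rich barcodes.

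Mature members showed no such split. They were 2 of 5 members of Placebo 1, and their share in the other libraries was 27.8%, 32.4%, 34.8% and 33.3%, and the difference within batches was 1.71 percentage points (exact permutation p = 0.667). Among macrophages 0% to 1.38% met the mature criterion, and among T cells, which use Ccr7 as well, 20.9% to 71.2% did. Members of neither kind were 2 of 5 in Placebo 1 and made up 61.1%, 26.5%, 43.5% and 47.2% elsewhere. The lowest of these was Placebo 2, the library with the most cDC1 members.

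**Figure D2:**
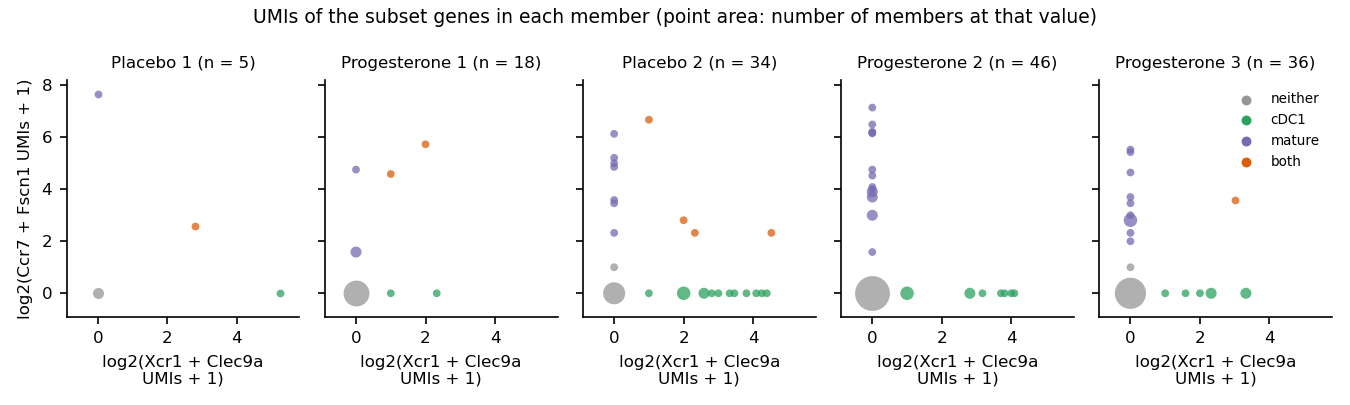
Each panel is 1 library and each point a member or several members with the same values, with the point area in proportion to their number. The x axis is log2 of Xcr1 plus Clec9a UMIs plus 1, and the y axis is log2 of Ccr7 plus Fscn1 UMIs plus 1. Most members lie on an axis, and the 8 members of both subsets lie off both axes.

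cDC1 members carried most of the known programme of this subset. Of the 14 genes in the cDC1 list that did not serve in the rule, 13 were higher in cDC1 than in the other members in both libraries with at least 10 cDC1 members (Placebo 2 and Progesterone 2), against 23.4% of all 8298 genes with enough UMIs. The remaining gene, the lineage transcription factor gene Batf3, was lower in both libraries (median log2 ratio -0.20). The direction has no test, since the subset was cut from the same cells. Naaa, an amidase of fatty acid ethanolamides, stood at 1615 CPM in cDC1 members of Placebo 2 against 312 CPM in the others, and at 1111 against 137 CPM in Progesterone 2. Mctp1 stood at 474 against 94.7 CPM and at 538 against 52.4 CPM in the same libraries, and the scavenger receptor gene Cd36 at 162 against 3.51 CPM and at 59.7 against 1.69 CPM. Of 15 cDC2 genes, 13 were lower in cDC1 members in both libraries, as were 18 of 21 genes of the mature list (36.8% of all genes were lower).

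Of 20 interferon-stimulated genes, 13 were higher in cDC1 members in both libraries and 3 were lower (23.4% and 36.8% of all genes were). Of 21 MHC class I and cross-presentation genes, 11 were higher in both libraries and 1 was lower, with a median log2 ratio of 0.33. Irf7, the transcription factor that amplifies the interferon response, stood at 184 CPM in cDC1 members and 28.1 CPM in the others in Placebo 2, and at 191 and 3.38 CPM in Progesterone 2. Isg15, which encodes a ubiquitin-like protein, stood at 70.3 and 28.1 CPM in Placebo 2 and at 257 and 5.07 CPM in Progesterone 2. A single member supplied much of the interferon-stimulated UMIs in Progesterone 2: it held 27 of the 34 Irf7 UMIs, 37 of the 46 Isg15 UMIs and 22 of the 33 Ifi44 UMIs found among all members there. In Placebo 2 the highest member held 13 of 68 Irf7 UMIs, 7 of 31 Isg15 UMIs and 6 of 38 Ifi44 UMIs. The pattern was thus spread over members in Placebo 2 and rested on few of them in Progesterone 2. Cxcl9, a chemokine that attracts T cells, came from 1 member in each of the batch 2 libraries, with 3, 57 and 7 UMIs.

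The RefSeq promoter of Isg15 is shown because it carries the element by which this group of genes is known to respond to interferon, on the minus strand upstream of the start site at chr4:156200819-156201068 of GRCm38.p6. Capitals mark 3 overlapping matches to the core of the interferon-stimulated response element (ISRE), which is GAAA, any 2 bases and GAAA again, searched on both strands.
Isg15: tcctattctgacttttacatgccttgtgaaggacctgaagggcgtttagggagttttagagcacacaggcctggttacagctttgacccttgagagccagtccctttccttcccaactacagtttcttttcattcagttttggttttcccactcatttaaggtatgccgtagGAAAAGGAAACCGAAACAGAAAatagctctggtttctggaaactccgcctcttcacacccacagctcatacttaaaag
Of the 14 leading genes of the cDC1 subset, 12 matched the RefSeq promoter table, and the 300 base window of Isg15 and Slfn5 held this ISRE core, against 3.38% of 21699 windows. A match is a description of the letters and says nothing on binding in these cells.

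Mature members carried the genes of the mature list in all 3 batch 2 libraries. Of the 21 genes in the mature list outside the rule, 18 were higher in mature than in other members in each of the 3 libraries, where 12.9% of all 9100 genes were. The cytokine and chemokine list as a whole did not stand out, with 3 of 18 genes higher in all 3 libraries, 1 lower and a median log2 ratio of 0.00. Ccl5, a chemokine for T cells, stood at 3553, 1404 and 1065 CPM in mature members of Placebo 2, Progesterone 2 and Progesterone 3 against 96.4, 2.46 and 5.22 CPM in the others. Its highest member held 408 of 741, 279 of 496 and 209 of 232 UMIs. Il12b, the p40 subunit of IL-12 and IL-23, stood at 517, 749 and 1297 CPM against 0, 0 and 10.4 CPM, and came from 4 members in each of these libraries, while Il12a, the p35 subunit, had 0 UMIs in members. A single member held most of the Il12b UMIs in Progesterone 2, and likewise in Progesterone 3. Mreg (melanoregulin) stood at 634, 349 and 181 CPM against 2.41, 2.46 and 2.61 CPM, and Cacnb3, a calcium channel subunit, at 238, 190 and 162 CPM against 2.41, 2.46 and 5.22 CPM. Of 11 costimulatory genes, 6 were higher in mature members in all 3 libraries and 1 was lower. Ly75, the uptake receptor DEC-205, stood at 375, 258 and 227 CPM in mature members against 21.7, 41.8 and 20.9 CPM in the others. The chemokine gene Ccl22 was likewise higher in all 3 libraries, at 228, 53.9 and 111 CPM against 2.41, 9.84 and 5.22 CPM.

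Members of neither kind carried cDC2 genes. Progesterone 2 and Progesterone 3 had at least 10 of them and at least 10 others, and in both libraries 14 of 15 cDC2 genes were higher in these members than in the others, with none lower (32.5% of all 8252 genes were higher). Clec10a, a galactose-binding lectin, stood at 188 and 296 CPM against 55.8 and 91.8 CPM. Itgam, the integrin CD11b, stood at 142 and 77.6 CPM against 34.6 and 6.33 CPM. Among the leading genes, Cxcl2 stood at 1448 and 931 CPM against 188 and 63.3 CPM, and Fn1 (fibronectin) at 419 and 123 CPM against 119 and 3.17 CPM. Lyz2 stood at 544 against 59.6 CPM in Progesterone 2 and at 222 against 215 CPM in Progesterone 3. Of 15 G2M genes, 12 were lower in these members in both libraries (23.8% of all genes were), while of 16 S phase genes 3 were higher and 5 lower. Over all members the cDC2 marker Mgl2 was found in 59 and Il1b in 102 of 139, while Cd209a was found in 12.

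**Figure D3:**
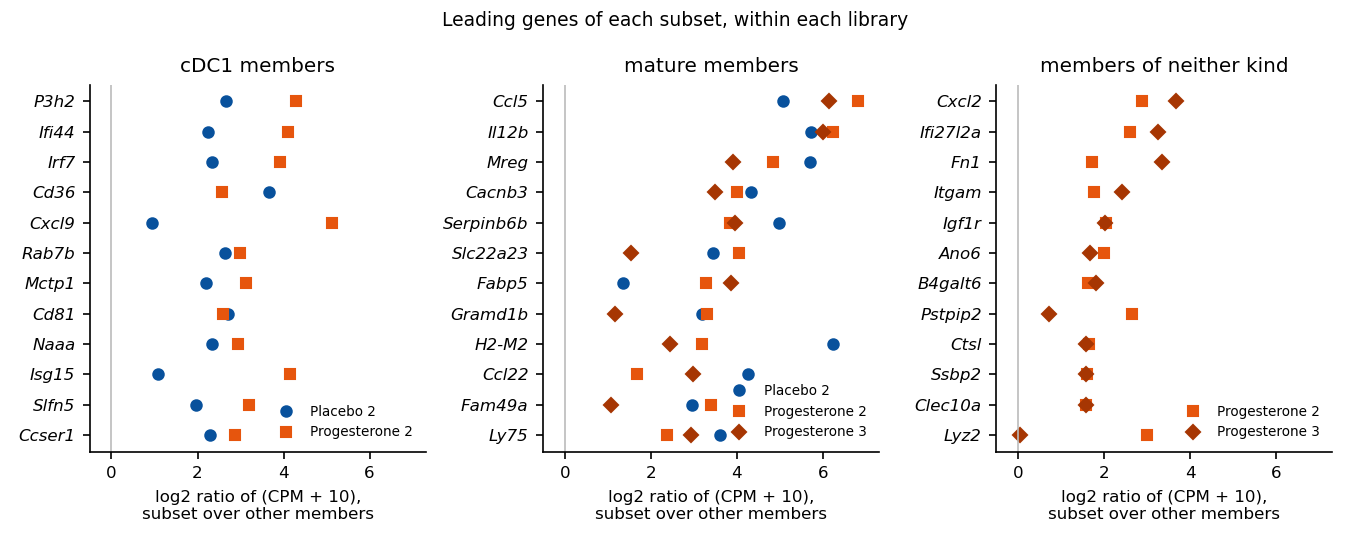
The 12 leading genes of each subset outside the rule, as the log2 ratio of (CPM + 10) in the subset over (CPM + 10) in the other members of the same library. Points are the libraries with at least 10 members of the subset, and the grey line marks no difference. Ccl5 and Il12b lie at about 5 to 7 in mature members in all 3 libraries, while Cxcl9 (0.94 and 5.13) and H2-M2 (2.45 to 6.25) have the widest spread between libraries.

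The comparison of progesterone with placebo pellets asks whether the members themselves differed. UMIs were summed over the members of each library with at least 10 members and tested with edgeR's quasi-likelihood test, which had a batch term, and p-values were adjusted by Benjamini-Hochberg over all genes. Placebo 1 was left out by the limit, so Progesterone 1 had no placebo partner. The fold changes compare Placebo 2 with Progesterone 2 and Progesterone 3, with 1 residual degree of freedom. The SE and p-values of this fit thus rest on the spread between Progesterone 2 and Progesterone 3, and measure no spread between placebo tumours. Of 7645 genes that were not part of the rules, 34 passed an adjusted p of 0.05 (0.445%), 16 higher (0.209%) and 18 lower (0.235%) with progesterone. Without the batch term edgeR called 0 genes (234 had an unadjusted p under 0.05) and DESeq2 called 2, and with all 5 libraries and the batch term edgeR called 1 (0.0147%), Cxcl2. DESeq2 with the batch term called 6, of which 5 were among the 34 (Cxcl2, Ptgs2, Cd14, Il1r2 and Tanc2).

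Cxcl2, a chemokine that draws neutrophils through the receptor CXCR2, had the largest rise. Its UMIs numbered 1, 62, 16, 444 and 284, which is 9.80, 164, 26.1, 585 and 474 CPM, found in 1 of 5, 11 of 18, 7 of 34, 21 of 46 and 11 of 36 members. All 3 progesterone libraries lay above both placebo libraries. The log2 fold change was 4.17 (SE 0.34, adjusted p = 7.3e-05, edgeR). In Progesterone 3 a single member held 219 of the 284 UMIs, and in Progesterone 2 the highest held 140 of 444. With the highest member of each library left out the log2 fold change was 3.80 and the adjusted p 0.84 (edgeR), and with all cDC1 members left out it was 4.20. Macrophages had far more Cxcl2, at 2848, 5263, 4844 and 3936 CPM in Progesterone 1, Placebo 2, Progesterone 2 and Progesterone 3, with the highest level in Placebo 2. The part of RNA from other cells in the member values was not tested.

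The gene lies at chr5:90903871-90905938 on the plus strand in GENCODE M21, and its RefSeq promoter at chr5:90903649-90903898 of GRCm38.p6 is shown because it is a textbook target of NF-kappaB. Capitals mark 2 overlapping matches to the kappaB consensus, searched on both strands.
Cxcl2: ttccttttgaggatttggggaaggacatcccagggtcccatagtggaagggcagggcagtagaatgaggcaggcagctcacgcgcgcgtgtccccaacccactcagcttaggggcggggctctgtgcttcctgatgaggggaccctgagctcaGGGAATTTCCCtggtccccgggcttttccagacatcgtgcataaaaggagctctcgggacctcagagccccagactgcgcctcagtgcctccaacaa
The kappaB consensus was found in 9.32% of 21699 windows of 300 bases, and in those of Cxcl2, Lrmda and Ramp3 among the 9 named risen genes with a window in the table. Of 6 named fallen genes with a window, Psap held it. The joint element of ETS and IRF factors (GGAA, any 2 bases, GAAA) was found in Bach2 alone among the named risen and fallen genes (2.53% of all windows), and the cAMP response element TGACGTCA in none of them (2.30%).

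Ptgs2 encodes cyclooxygenase-2, the inducible enzyme of prostaglandin synthesis. Its level was 39.2, 79.5, 35.9, 277 and 339 CPM, with UMIs in 1, 4, 5, 28 and 15 members. The log2 fold change was 2.97 (SE 0.33, adjusted p = 0.00095, edgeR), and all 3 progesterone libraries lay above both placebo libraries. No member held most of the UMIs in Progesterone 2 (41 of 210) or Progesterone 3 (34 of 203), and the gene also passed with the highest member of each library left out (log2 fold change 3.53). Tex14, best known from the bridges between germ cells, stood at 19.6, 223, 78.4, 364 and 290 CPM (log2 fold change 2.01, SE 0.30, adjusted p = 0.011, edgeR), again with no overlap. Both genes, like Cxcl2, also passed with the 2 odd members left out.

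A further 9 named genes rose. Syk, a kinase downstream of C-type lectin and Fc receptors, stood at 264, 501, 149, 383 and 547 CPM (log2 fold change 1.61), and here Placebo 1 lay above Placebo 2 though below all progesterone libraries. Ramp3, which pairs with the calcitonin receptor-like receptor to bind adrenomedullin and related peptides, stood at 343, 90.1, 58.8, 161 and 234 CPM (log2 fold change 1.67, adjusted p = 0.046, edgeR). Its Placebo 1 level, from 3 members, was the highest of the 5. Bach2 (a transcriptional repressor of lymphocytes), Emb (embigin, a partner of lactate transporters) and Prkch (a protein kinase C) had log2 fold changes of 2.54, 2.26 and 1.83, and in each at least 1 progesterone library lay below Placebo 1. Tgm2, Nrg1, Lrmda and Lyz2 had log2 fold changes of 2.19, 1.94, 1.56 and 1.44 and were at 0, 0, 0 and 19.6 CPM in Placebo 1. The Lyz2 level of Progesterone 1, 1818 CPM, was far above those of Progesterone 2 (212) and Progesterone 3 (219). Nrg1, a ligand of ERBB receptors, was concentrated: 1 member held 23 of 25 UMIs in Placebo 2 and another 87 of 142 in Progesterone 2.

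Il1r2, the decoy receptor for IL-1, and Cd14, the lipopolysaccharide co-receptor, also passed though the groups overlapped. Il1r2 stood at 19.6, 204, 560, 1532 and 1402 CPM, and within batch 2 both progesterone libraries were above the placebo library (log2 fold change 1.38, SE 0.21, adjusted p = 0.011, edgeR). Cd14 stood at 9.80, 260, 335, 1059 and 1053 CPM (log2 fold change 1.64, SE 0.22, adjusted p = 0.0071, edgeR). Progesterone 1 lay below Placebo 2 for both and above Placebo 1. These 2 genes passed with DESeq2 as well.

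Naaa, the cDC1 gene described above, fell. It stood at 1489, 143, 1008, 352 and 432 CPM, so that both placebo libraries lay above all 3 progesterone libraries (log2 fold change -1.37, SE 0.22, adjusted p = 0.014, edgeR). With all cDC1 members left out the log2 fold change was -1.32 and the gene still passed. Cst3 (cystatin C, a protease inhibitor and one of the most abundant dendritic cell transcripts) stood at 9218, 4077, 14504, 7923 and 8781 CPM (log2 fold change -0.81, adjusted p = 0.019, edgeR). Its fall was not seen once cDC1 members were left out, when the log2 fold change was 0.03. Psap (prosaposin, a lysosomal protein) stood at 2694, 1476, 1833, 959 and 976 CPM (log2 fold change -0.93, adjusted p = 0.030, edgeR), and Cd36 had 1, 3, 54, 11 and 9 UMIs (log2 fold change -2.35, adjusted p = 0.016, edgeR). Inpp4b, a phosphoinositide phosphatase, stood at 186, 111, 214, 59.3 and 83.4 CPM (log2 fold change -1.56), with both placebo libraries above all 3 progesterone libraries. With cDC1 members left out neither Inpp4b (log2 fold change -0.61, adjusted p = 0.73, edgeR) nor Psap (-0.70, adjusted p = 0.14) passed, and Cd36 could not be tested.

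Several of the genes that fell rested on 1 barcode. Tanc2, a scaffold protein, stood at 0, 58.3, 361, 13.2 and 28.4 CPM (log2 fold change -3.97, SE 0.34, adjusted p = 8.6e-05, edgeR), and 204 of its 221 UMIs in Placebo 2 came from the odd member with high keratin. Without the 2 odd members the log2 fold change was -0.52. The odd member of Placebo 2 was picked by its Tanc2 UMIs, so a smaller change was set by that choice. In 10 of the 18 genes that fell, a single member held most of the UMIs of Placebo 2, among them Tm4sf5 (68 of 90, and a log2 fold change of -0.13 with cDC1 members left out), Chsy3 (38 of 74, and -1.83 with an adjusted p of 0.21 in edgeR without cDC1 members), Igf2bp2 (27 of 30) and Nos1ap (34 of 41). Without the 2 odd members 10 of the 34 genes passed, 5 in each direction, and these were Cxcl2, Ptgs2, Tex14, Il1r2 and Cd14, which were higher, and Naaa, Cst3, Psap, Tm4sf5 and Cd36, which were lower.

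**Figure D4:**
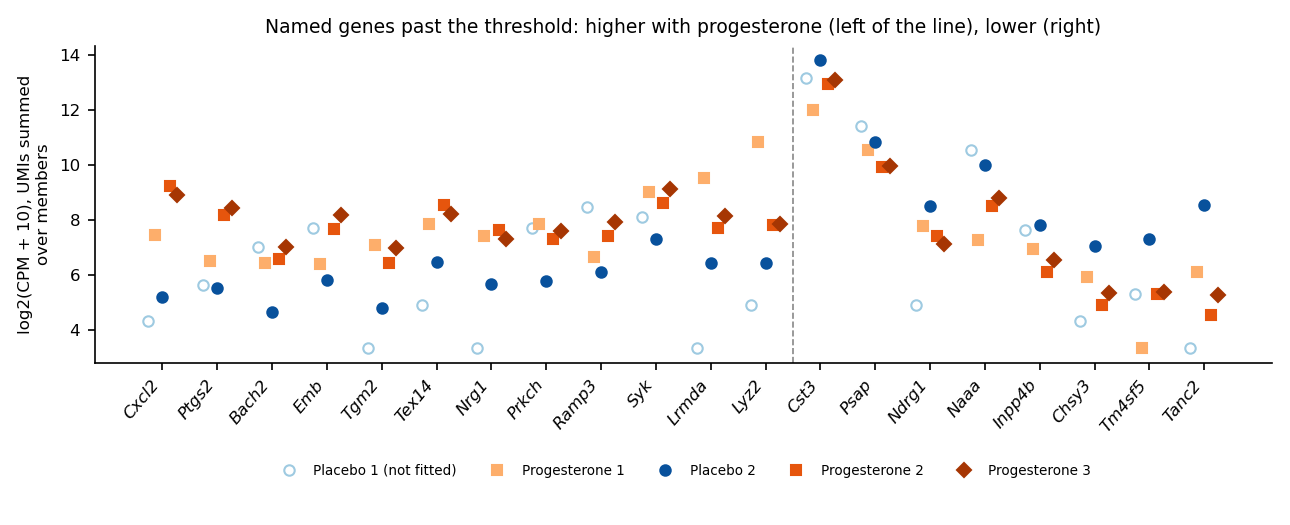
Levels of the 20 named genes as log2(CPM + 10) of UMIs summed over members, 1 point per library. Open circles are Placebo 1, which has 5 members and was not fitted. Left of the dashed line are 12 genes that were higher with progesterone, right of it 8 that were lower. The choice of named genes required Placebo 2 to lie below the 3 progesterone libraries in all 12 and above them in all 8. Placebo 1 had no part in that choice, and lies among or above progesterone libraries for Bach2, Emb, Prkch and Ramp3. Among the 8 that were lower, Placebo 1 lies below Progesterone 1 for Tanc2, Chsy3 and Ndrg1.

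The share of cDC1 members also differed between these libraries. With UMIs pooled over libraries, all 16 genes that rose were lower in cDC1 than in other members, as were 58.0% of the 7645 genes tested. Of the 18 that fell 10 were higher in cDC1 members, as were 42.0% of the genes tested. With all cDC1 members left out, 32 of the 34 genes could be tested, 30 kept their direction and 25 passed. In that fit 141 of 6527 genes passed (2.16%), 52 higher (0.797%) and 89 lower (1.36%), and without the batch term none did (211 had an unadjusted p under 0.05). A mean of the subsets with equal weights, tested with limma, called 0 genes (548 had an unadjusted p under 0.05). How much of the gene differences comes from the makeup of the members was not tested further.

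The lists by role showed few calls, and are given beside the same counts over all 7645 genes, of which 26.5% were higher and 20.5% lower in every progesterone library than in the placebo library fitted, with a median log2 fold change of 0.02. Of 13 cDC1 genes tested, 1 fell (Naaa), 11 lay lower without overlap, and the median log2 fold change was -0.96, or -0.29 with cDC1 members left out. Irf8, the factor that cDC1 cells need, stood at 1313, 111, 622, 378 and 319 CPM, and Wdfy4, needed for cross-presentation, at 637, 143, 551, 256 and 307 CPM, neither of which passed. Of 15 cDC2 genes none passed, 8 lay higher without overlap, and the median was 0.68, or 0.11 with cDC1 members left out. Of 21 mature genes, Ramp3 rose, and the median was -0.09.

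Antigen presentation genes did not pass in either class. The median of 20 MHC class I and cross-presentation genes was -0.41, with 14 lower without overlap and 2 higher. H2-K1, a classical class I heavy chain, stood at 1489, 824, 2149, 1394 and 1226 CPM (log2 fold change -0.72, adjusted p = 0.12, edgeR). Of 13 MHC class II presentation genes outside the rule the median was 0.25, and Cd74, the invariant chain, stood at 16634, 16591 and 18102 CPM in batch 2 and at 9345 and 9357 CPM in batch 1. For this gene the batches lay further apart than the groups.

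Among the genes that tune T cells, none passed. Cd274, which encodes PD-L1, stood at 78.4, 156, 101, 295 and 214 CPM, with all progesterone libraries above both placebo libraries (log2 fold change 1.30, adjusted p = 0.092, edgeR). The costimulatory gene Cd80 stood at 39.2, 63.6, 160, 258 and 305 CPM and Cd86 at 255, 363, 895, 1152 and 1039 CPM, where batch 1 lay below batch 2. The 12 inhibitory genes had a median of 0.44 and the 10 costimulatory genes one of -0.18. Of 16 cytokine and chemokine genes Cxcl2 rose, with a median of 1.07, and Il1b stood at 0, 1031, 1993, 3684 and 3429 CPM (log2 fold change 0.83, adjusted p = 0.056, edgeR). Of 18 interferon-stimulated genes none passed (median -0.45), and Bst2 stood at 68.6, 156, 413, 145 and 217 CPM (log2 fold change -1.20, adjusted p = 0.071, edgeR). Of 20 pattern recognition and uptake genes Cd14 rose and Cd36 fell.

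The hormone's own receptor was close to absent in members. Pgr, the progesterone receptor, had 0, 0, 0, 6 and 3 UMIs in members, in 0, 0, 0, 4 and 3 of them, or at most 7.91 CPM, while keratin-rich barcodes of batch 2 stood at 223, 173 and 199 CPM. Nr3c1, the glucocorticoid receptor, which progesterone can also bind, stood at 78.4, 103, 80.1, 40.8 and 45.1 CPM (log2 fold change -0.86, adjusted p = 0.43, edgeR). Of 11 target genes shared by steroid receptors none passed and the median was -0.14. Tsc22d3 (GILZ) stood at 68.6, 127, 108, 121 and 95.1 CPM, and Fkbp5 at 98.0, 79.5, 16.3, 23.7 and 21.7 CPM. Cycling genes were present in some members: Mki67 was found in 1, 5, 4, 12 and 8, and none of 10 G2M and 14 S phase genes passed. Of 18 hypoxia and glycolysis genes Ndrg1 fell (log2 fold change -1.28, adjusted p = 0.042, edgeR), with 101 of its 217 UMIs in Placebo 2 in 1 member, and of 17 lipid and cholesterol genes and 22 immediate early and heat shock genes none passed.

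Within subsets the same test had little to work with. For cDC1 members the limit of 10 cells left Placebo 2 and Progesterone 2 only, with no residual degree of freedom. A limit of 8 cells, set afterwards, brought in Progesterone 3, and 7 of 3405 genes passed (0.206%), 3 higher (0.0881%) and 4 lower (0.117%). For mature members of Placebo 2, Progesterone 2 and Progesterone 3, with 1 residual degree of freedom, 83 of 4110 genes passed (2.02%), 44 higher (1.07%) and 39 lower (0.949%), where DESeq2 called 3. For members of neither kind no placebo library reached 10 cells. With at least 8 cells 121 of 4901 genes passed (2.47%), 51 higher (1.04%) and 70 lower (1.43%), and without the batch term 4 did. With 8 to 20 cells in a sum, 1 barcode can carry a gene, as it did for Tanc2, so no gene is named from these fits.

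A test of the difference between members and macrophages of the same libraries asked whether the 2 classes differed in their change with progesterone. It used an interaction of class and treatment in edgeR with the library as block. Placebo 2 was the only placebo library in this fit, so its SE and p-values measure no spread between placebo tumours. The model had no term for class by batch, so Progesterone 1, with no placebo partner, counted with the other progesterone libraries. Of 11063 genes 4 passed (0.0362%), 2 with a higher (0.0181%) and 2 with a lower (0.0181%) change in members. Cd209d, a gene of the DC-SIGN family, had member levels of 101 CPM (Progesterone 1), 9.80 CPM (Placebo 2), 48.8 CPM (Progesterone 2) and 133 CPM (Progesterone 3). Its macrophage levels, in the same order, were 0.358, 13.9, 0.555 and 0.743 CPM. The difference of log2 fold changes was 6.67 (SE 0.63, adjusted p = 0.0051, edgeR). Mrc1, the mannose receptor CD206, stood in members at 119, 35.9, 123 and 81.8 CPM and in macrophages at 360, 1285, 264 and 238 CPM, in the same order (difference 3.63, SE 0.47, adjusted p = 0.034, edgeR). For both genes the Placebo 2 level was the lowest of 4 in members and the highest of 4 in macrophages.

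Ccl5 went the other way, at 729, 1211, 654 and 387 CPM in members and 63.0, 12.8, 56.7 and 66.6 CPM in macrophages (difference -3.43, SE 0.47, adjusted p = 0.044, edgeR). Tanc2 passed as well (-4.69, SE 0.49, adjusted p = 0.0072, edgeR), with the single barcode already named behind its level in members of Placebo 2. The next 4 genes by adjusted p, Clec10a, Ramp3, Procr and Ccl9, did not pass, with differences of 4.09, 2.79, -2.92 and 2.83 and adjusted p-values of 0.053, 0.087, 0.087 and 0.087 (edgeR). In members, Cd209d had UMIs in 5, 2, 6 and 7 cells and Mrc1 in 6, 7, 11 and 9, so these levels rest on few cells. In the members alone Cd209d (log2 fold change 2.81, adjusted p = 0.27), Mrc1 (1.43, adjusted p = 0.19) and Ccl5 (-1.21, adjusted p = 0.22) did not pass in edgeR, and the larger part of each difference lay in the macrophages, where the log2 fold changes were -3.96, -2.33 and 2.26.

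**Figure D5:**
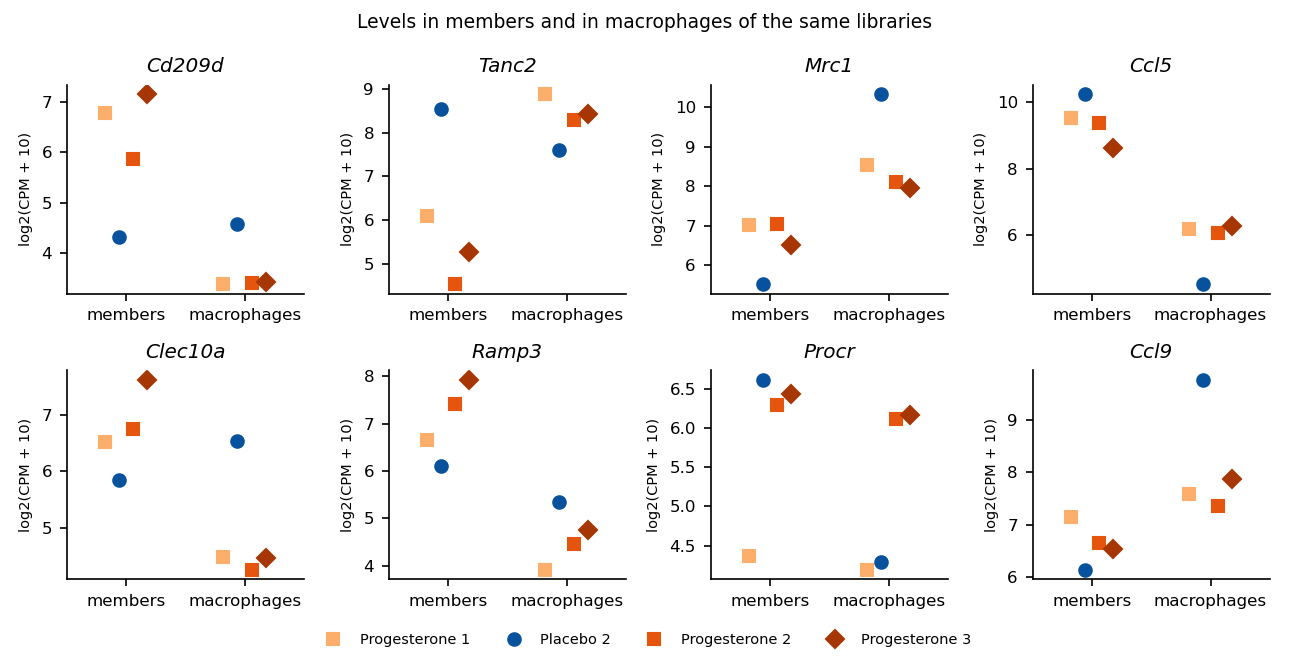
Levels of the 8 genes with the smallest adjusted p for the difference, as log2(CPM + 10), in members (left) and macrophages (right) of the 4 libraries fitted, 1 point per library; each panel has its own y range. For Cd209d, Mrc1, Clec10a, Ramp3 and Ccl9 Placebo 2 is the lowest point in members and the highest in macrophages.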

How the data were processed

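The 5 libraries of dissociated tumours were made with a 10x 3′ kit, per the labels' protocols. The deposited matrices hold whole-number UMI counts per gene and barcode, not normalised, per the file headers, for 24860 gene symbols with no mitochondrial gene. Cell Ranger is given as 7.0.0 in the submitters' processing notes and 8.0.1 in the file headers. The members, gene lists and alternatives were chosen with earlier results of these data known. Counts were summed over the members of each library and compared in R 4.3.3 by the quasi-likelihood test of edgeR 4.0.16 (TMM factors, batch as covariate, Benjamini-Hochberg adjustment, threshold 0.05) in libraries of at least 10 members. DESeq2 1.42.0 and limma 3.58.1 served as alternatives. Other steps used Python 3.11.15, numpy 2.4.6, scipy 1.17.1 and scanpy 1.11.5, whose doublet caller marked 2 members, kept in the main values. Ratios between sets of cells used CPM + 10.

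In data simulated for the comparison of all members, the edgeR test recovered 87% of genes changed by 2 and 95% of those changed by 3 on the log2 scale, with 5 false calls among 7115 genes. The simulated counts had a fixed dispersion, no batch difference and no single member that held most UMIs of a gene. These rates therefore need not hold for the real sums. Named treatment genes passed the threshold, had a mean of at least 50 CPM, did not overlap between the groups fitted, served in no rule, and were the 12 largest by fold in each direction, of which 8 lower genes existed. Named subset genes were the 12 with the largest ratio over other members, with at least 50 UMIs and 1 sign in all libraries used. The 15 leading genes over macrophages and the 8 smallest adjusted p-values of the interaction were named likewise, as were listed genes. Il1r2, Cd14, Cd36, Igf2bp2 and Nos1ap were named after their values were seen, to complete counts. Gene positions are from GENCODE M21 on GRCm38 and promoters from RefSeq on GRCm38.p6. Library totals ran from 23409215 to 204786073 UMIs, and members of a library summed to 102087 to 758953 UMIs. Alternatives are given in the closing section. The batch served as the replicate block, since the sample titles name it.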

Additional observations from a re-analysis of the deposited data

Results flagged for a closer look

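Some values went one way in batch 1 and the other way in both pairs of batch 2. Batch 1 has only 1 placebo library with 5 members, and the difference between batches was not tested. The share of mature cells differed by -12.2 percentage points (progesterone minus placebo) in batch 1 and by 0.980 to 2.43 points in batch 2. On the log2(CPM + 10) scale, Bach2 was at -0.55 in batch 1 and 1.95 to 2.40 in batch 2, Emb at -1.29 and 1.86 to 2.36, and Ramp3 at -1.82 and 1.31 to 1.82. Among genes that fell in batch 2, Tanc2 was at 2.77 in batch 1 and -4.00 to -3.27 in batch 2, Chsy3 at 1.61 and -2.14 to -1.71, and Ndrg1 at 2.87 and -1.40 to -1.11. In Placebo 1 all 20 Emb UMIs and all 12 Bach2 UMIs came from 1 member, as did 32 of 35 Ramp3 UMIs.

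The differences of log2 fold changes between members and macrophages in edgeR's interaction test were 6.67 for Cd209d and 3.63 for Mrc1. They were -4.69 for Tanc2 and -3.43 for Ccl5. Placebo 2 was the only placebo library of this test. In Placebo 2, 1 member held 204 of 221 Tanc2 UMIs and another 408 of 741 Ccl5 UMIs.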

How the results depend on the processing

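The count of genes by treatment in all members, 34 by edgeR, moved with almost every setting. It was 6 with DESeq2, 141 with no filter on low counts, 10 without doublet calls, 13 with Flt3 at least 2, 127 with C1q genes at 0, 42 without genes high in keratin barcodes and 0 with sums thinned to the lowest total (351 at unadjusted p under 0.05). Without the replicate block (batch) it was 0 in edgeR (234) and 2 in DESeq2. With all 5 libraries it was 1, and 0 without the replicate block (313). Alternatives chosen after seeing the data gave 10 without the 2 odd members, 150 without the highest member of each gene and library, 141 without cDC1 members and 0 without them and the block (211). Subsets at equal weights gave 0 in limma (548). Leaving out 1 library gave 3 to 129 calls: 3 without Progesterone 2 and 7 without Progesterone 3, both fitted without a batch term, and 129 without Progesterone 1. The cause of these moves was not tested.

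Among the values of named treatment genes under alternatives, 139 kept direction and side of the threshold, 238 no longer passed and 3 turned: Ramp3 at -0.0914 (all 5 libraries, no replicate block), Psap at 0.0287 (no cDC1 members, no replicate block) and Cst3 at 0.0272 (no cDC1 members). For mature members DESeq2 called fewer genes than edgeR, as given above. Their fit held libraries of batch 2 only, so it had no batch term, and the fit without the block was the same model. The interaction gave 4, 85 with no filter, 50 with class by batch, and 11 to 69 leaving out 1 library. With macrophages held to at least 50 C1q UMIs fewer genes passed, and 1 gene named for a higher change in members no longer did. The share of members gave -1.11 per macrophage and 0.37 to 3.34 leaving out 1 library. The share of mature cells turned to -1.48 (thinned to 1500 UMIs), -0.39 (no replicate block), -3.87 (all 5 libraries) and -4.21 (all 5, no replicate block). For the gene tests, leaving out Placebo 2, and the fits of cDC1 and neither members at 10 cells with their alternatives, could not be run, since no placebo library or no residual degree of freedom was left. With 5 to 46 members a library, 1 member can carry a gene, and levels of few UMIs were not resolved.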

Other observations

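Epcam and the keratins did not keep 1 ratio across cells. Per 100 UMIs of Krt8, Krt18 and Krt19 together, Epcam had 30.7, 58.3 and 61.9 UMIs in members of Placebo 2, Progesterone 2 and Progesterone 3. In macrophages of the same libraries it had 11.7, 16.2 and 13.5, and in keratin-rich barcodes 13.8, 17.3 and 16.3. In Progesterone 1 the members stood at 3.26 (3 Epcam UMIs), below the macrophages at 11.8. Epcam and the keratins both served in the rule, so these are levels with no test. Some Langerhans cells and dendritic cells are known to carry Epcam.

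Single members carried large amounts of secreted products. In Placebo 1, 1 of 5 members held all 190 Il12b UMIs and all 281 Ccl5 UMIs of the members. In Progesterone 2, 1 member held 240 of 264 Il12b UMIs, and in Progesterone 3, 1 held 218 of 284.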
